A study of Mus musculus with 11 samples.

Results

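The genes described here are 10 mouse genes of the nuage, the germ granule of the male germ line: Ddx4, Tdrd1, Tdrd5, Tdrd6, Tdrd7, Tdrd9, Tdrd12, Tdrkh, Rnf17 and Stk31. They were picked by name, as the Vasa helicase and the Tudor domain proteins of germ cells, out of 33188 genes counted together with 1088 subfamilies of transposable elements (TEs), and all 10 were counted and passed the filter on low counts. Their RNA was measured by poly-A RNA sequencing of whole testes at postnatal day 5 (P5) in 4 genotypes: 2 wild-type (WT) libraries and 3 libraries each of Dnmt3C KO (genotype Dnmt3CKO/KO), of Nrf1 cKO (labelled Nrf1KO/KO) and of dKO, which carries both mutations. By the study's methods, a floxed Nrf1 allele was deleted in germ cells only, by a Cre from the Ddx4 promoter that acts before birth. The methods give the other Nrf1 allele of these animals as a KO allele, which their somatic cells carry as well. Dnmt3C was lost in the whole animal. The sample titles name germ cells only, but the other labels put both germ cells and somatic cells in every sample and the study's methods give whole testis, so a library is read here as one of whole testis, which holds the nuage transcripts diluted in somatic RNA. The design asks how the loss of the transcription factor NRF1 and of the methyltransferase DNMT3C, which methylates promoters of young retrotransposons, changes transcription in these testes.

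Nuage is a cytoplasmic, membraneless condensate of RNA and protein that lies between mitochondria in prospermatogonia and, as the chromatoid body, beside the nucleus in spermatids. Tudor domains bind dimethylated arginines on PIWI proteins and on Vasa, and so hold the PIWI proteins and their small RNAs (piRNAs) in the granule. In fetal germ cells the piRNAs made there guide methylation to retrotransposon promoters, the step that DNMT3C carries out.

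All 10 genes were protein-coding in the GRCm38 annotation, on 10 different chromosomes. Ddx4 (ENSMUSG00000021758.14) lies on the minus strand at chr13:112598333-112652475, Tdrd9 (ENSMUSG00000054003.13) on the plus strand at chr12:111971559-112068854, and Tdrd12 (ENSMUSG00000030491.16) on the minus strand at chr7:35469098-35537745. Tdrd1 (ENSMUSG00000025081.13) lies on the plus strand at chr19:56826209-56870012, Tdrd6 (ENSMUSG00000040140.15) on the minus strand at chr17:43615335-43630299, Rnf17 (ENSMUSG00000000365.9) on the plus strand at chr14:56402581-56525032, and Stk31 (ENSMUSG00000023403.14) on the plus strand at chr6:49395604-49469501. Tdrd5 (ENSMUSG00000060985.15) lies on the minus strand at chr1:156255296-156303664, Tdrd7 (ENSMUSG00000035517.17) on the plus strand at chr4:45965334-46034761, and Tdrkh (ENSMUSG00000041912.12) on the plus strand at chr3:94413273-94434668. Exons of Tdrkh overlap the antisense gene Oaz3 and exons of Tdrd5 overlap the antisense gene 4930518J20Rik, and the authors counted reads by strand.

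NRF1 binds a GC-rich palindrome whose CpGs, when methylated, hinder it. The promoter windows of RefSeq on GRCm38.p6, from 250 bases before to 50 after each annotated start, were therefore searched on both strands for its letters, taken as GCGCA and GCGC with any 1 base between them. A window was found for 8 of the 10 genes, with Tdrd6 and Rnf17 unmatched. The letters were in a window of 4 of these 8 genes, Stk31, Tdrd1, Tdrd5 and Tdrd7, against 5.19% of 27025 genes. In Tdrd7 they lay only at an internal start, and in Stk31 there were 2 overlapping matches. The stretches of 30 bases around these letters are shown because they are where the letters of the deleted factor stand in this group, with the matches in capitals, at chr6:49395524-49395553 (plus strand) for Stk31, chr19:56826204-56826233 (plus) for Tdrd1, chr1:156303412-156303441 (minus) for Tdrd5 and chr4:45972137-45972166 (plus) for Tdrd7.
Stk31: gcacctcGCGCATGCGCAGGCGCagtgcgt
Tdrd1: ggagtaaactGCGCAGGCGCgggccccgca
Tdrd5: ggcccgcagtGCGCAGGCGCgcgagaccct
Tdrd7: aggacggcgtGCGCACGCGCagaaaccgct

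For contrast, the bases before the first start of Tdrd12, the gene with the lowest level in Nrf1 cKO relative to WT, hold no match and are shown for chr7:35537746-35537994 on the minus strand. They end 1 base before that start.
Tdrd12: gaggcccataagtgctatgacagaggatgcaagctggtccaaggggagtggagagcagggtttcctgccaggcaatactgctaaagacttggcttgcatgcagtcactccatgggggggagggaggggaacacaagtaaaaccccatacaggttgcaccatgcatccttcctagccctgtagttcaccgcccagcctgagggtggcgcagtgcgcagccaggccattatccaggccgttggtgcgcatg

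Other letters were searched in the same windows. The E-box CACGTG was in 4 of the 8 genes (8.09% of all genes), the E2F letters GGCGGGA in 1, Ddx4 (12.7% of all genes), and CCAAT in 3 (41.1%). CpGs were dense in some windows, with 48 in that of Tdrd5 and 38 in that of Ddx4, and few in others, with 3 at a later start of Tdrd1 and 4 at the first start of Tdrd7, beside a median of 7 over all 32851 windows. A match is a description of letters, and binding at these promoters was not analysed here.

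The libraries held between 26063590 and 39365841 counts. The labels were checked on the deleted genes. Nrf1 mRNA was between 52.2 and 60.8 counts scaled to library size (CPM) in the 6 libraries with the germline deletion and between 44.9 and 58.0 in the other 5. Neither the germline deletion nor the KO allele was visible in whole-testis Nrf1 RNA. Dnmt3c mRNA was between 3.01 and 4.94 CPM in the 6 libraries that lack DNMT3C and between 3.85 and 4.87 in the other 5, so neither deletion could be checked by the level of its own gene. Sertoli cell markers summed to between 2280 and 4508 CPM over the libraries, against 108.3 to 547.2 CPM for 23 germ cell markers that include no nuage or piRNA gene. No marker of any of the 7 cell types tested was at 0 in a whole genotype. The labels and methods describe littermates but do not tie libraries to litters, and p-values measure the spread between these libraries only.

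Per exon length, the nuage genes spanned more than 2 orders of magnitude in WT. Ddx4 was highest, at 21.0 ± 1.15 CPM per kilobase of exon (SD, n = 2), followed by Tdrd7 at 7.87 ± 1.104, Stk31 at 6.83 ± 0.357, Tdrd1 at 3.94 ± 0.849, Rnf17 at 3.25 ± 0.492 and Tdrkh at 2.74 ± 0.469. Tdrd9 at 1.90 ± 0.461, Tdrd12 at 1.74 ± 0.0344 and Tdrd5 at 1.69 ± 0.0513 could not be ordered within their spread. Neither could the neighbours Tdrd7 and Stk31, Tdrd1 and Rnf17, Rnf17 and Tdrkh, or Tdrkh and Tdrd9. Tdrd6, a scaffold of the chromatoid body of spermatids, was lowest at 0.0726 ± 0.0486, on 9 and 28 counts. In Nrf1 cKO, Ddx4 at 8.45 ± 3.93 (SD, n = 3) and Tdrd7 at 7.18 ± 1.32 could not be ordered within their spread.

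**Figure D1:**
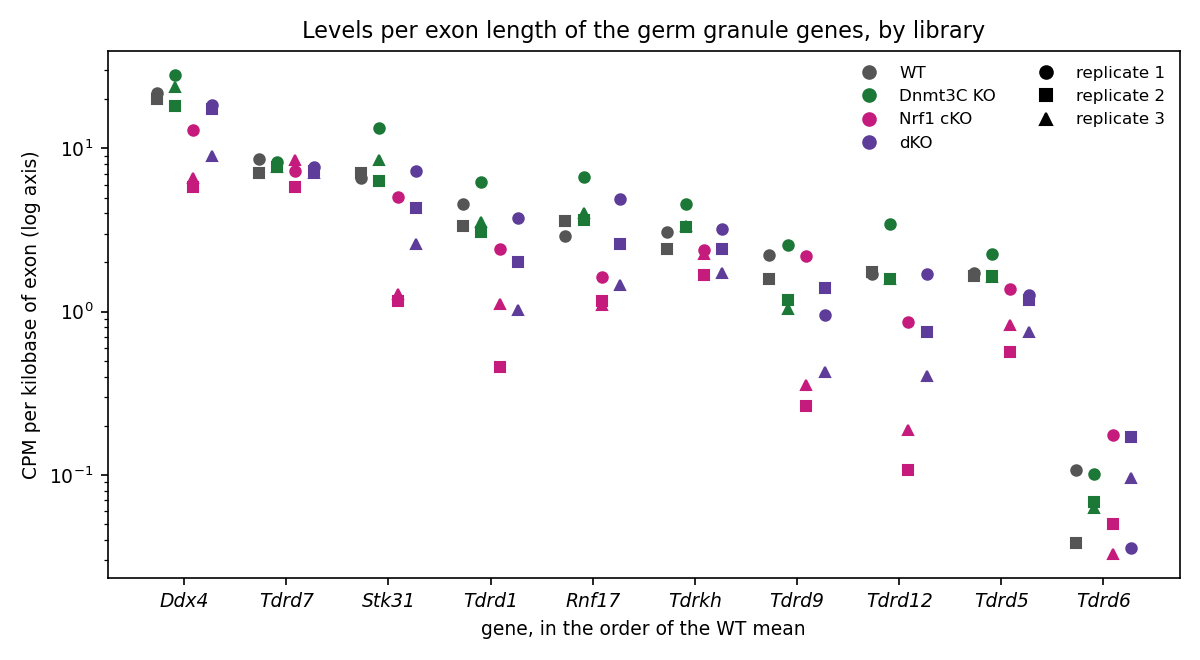
Level of each gene per kilobase of exon (CPM per kilobase, log axis) in the 11 libraries, with genes in the order of their WT mean, colours for genotypes and symbols for replicates. Ddx4 stands highest in WT and Tdrd6 lowest, and the libraries of Nrf1 cKO reach down to 0.107 for Tdrd12.

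Across the 11 libraries, 9 of the 10 nuage genes had a lower fitted level where Nrf1 was deleted, and 9 of 10 a higher one where DNMT3C was absent, but no single gene passed edgeR's test in any comparison at the main settings (filtered counts, library-size scaling, all libraries of the comparison and no replicate block). Some passed under other settings in 2 pairs of genotypes, Nrf1 cKO over WT and Dnmt3C KO over Nrf1 cKO. Tdrd12 was furthest down with Nrf1 deletion, to 32.4% of the level with Nrf1 intact, followed by Tdrd1 (43.5%) and Stk31 (44.0%), whereas Tdrd7, at 92.4%, was close to its control level. In whole testes, fewer germ cells and less RNA per germ cell cannot be told apart, and the germ cell markers moved with the nuage genes: 22 of the 23 were lower with Nrf1 deletion, with a median log2 fold change of -1.04, beside -0.92 for the 10 nuage genes and 0.00 for all 22594 features tested. Their part in the lower nuage values was not tested, and values scaled to these markers are given further on. By western blot, the paper reports less of a germ cell marker protein at P5 in Nrf1 cKO and dKO, and proposes germ cell loss. It chose P5 as an age before such loss becomes extensive.

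Ddx4, the Vasa RNA helicase, was at 60.8 and 65.7 CPM in WT libraries, 54.8, 71.9 and 85.1 in those of Dnmt3C KO, 17.5, 19.8 and 39.1 in those of Nrf1 cKO, and 27.2, 52.4 and 55.3 in those of dKO. Every Nrf1 cKO library lay below every WT and Dnmt3C KO library, and every dKO library lay below both WT libraries. The level with Nrf1 deleted was 0.95 lower on the log2 scale over both Dnmt3C backgrounds (SE 0.231, adjusted p = 0.341 by edgeR's quasi-likelihood test with Benjamini-Hochberg adjustment, and 0.0209 by DESeq2, with the threshold at 0.01 and a range of 0.0209 to 0.928 over all alternative settings).

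Tdrd9 and Tdrd12 each join a helicase to Tudor domains and act in piRNA biogenesis. Tdrd9 was at 8.53 and 12.1 CPM in WT libraries, 5.59, 6.40 and 13.8 in those of Dnmt3C KO, 1.44, 1.94 and 11.9 in those of Nrf1 cKO, and 2.32, 5.14 and 7.60 in those of dKO. One Nrf1 cKO library, replicate 1, was at the WT level and the other 2 far below it. Its Nrf1 effect was -0.88 on the log2 scale (SE 0.469, adjusted p = 0.656 by edgeR) and reached -1.47 without that library.

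Tdrd12 was at 7.42 and 7.63 CPM in WT libraries, 6.84, 6.86 and 14.9 in those of Dnmt3C KO, 0.462, 0.813 and 3.73 in those of Nrf1 cKO, and 1.74, 3.24 and 7.37 in those of dKO. All Nrf1 cKO libraries were below all WT libraries, and the 2 lowest rested on 17 and 21 counts. Its Nrf1 effect, -1.63 (SE 0.471, adjusted p = 0.414 by edgeR), was the most negative of the 10 and lay between -2.05 and -1.40 when single libraries were left out.

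Among the multi-Tudor scaffolds, Tdrd1, which binds the PIWI protein MILI in fetal nuage, was at 18.2 and 24.7 CPM in WT libraries, 16.7, 19.2 and 33.7 in those of Dnmt3C KO, 2.502, 6.04 and 13.2 in those of Nrf1 cKO, and 5.59, 11.02 and 20.4 in those of dKO. The Nrf1 cKO and WT libraries did not overlap, while those of dKO and Dnmt3C KO did. The Nrf1 effect was -1.20 (SE 0.375, adjusted p = 0.454 by edgeR).

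Rnf17, a RING finger and Tudor protein of its own granules in later germ cells, was at 18.1 and 22.5 CPM in WT libraries, 22.7, 25.2 and 41.5 in those of Dnmt3C KO, 6.85, 7.21 and 10.2 in those of Nrf1 cKO, and 9.07, 16.1 and 30.7 in those of dKO. Nrf1 cKO was lowest without overlap with WT or Dnmt3C KO, and Dnmt3C KO lay above WT. The effects were -0.96 (SE 0.266, adjusted p = 0.384 by edgeR) for Nrf1 deletion and 0.91 (SE 0.271, adjusted p = 1.00 by edgeR) for the absence of DNMT3C, the largest of the 10 in that direction.

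Stk31, a Tudor protein with a kinase-like domain, was at 21.3 and 22.9 CPM in WT libraries, 20.4, 27.4 and 43.2 in those of Dnmt3C KO, 3.78, 4.18 and 16.4 in those of Nrf1 cKO, and 8.37, 13.96 and 23.6 in those of dKO. Nrf1 cKO lay below WT without overlap, and 1 dKO library was above both WT libraries. The Nrf1 effect was -1.18 (SE 0.357, adjusted p = 0.424 by edgeR).

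Tdrd6 was too low to follow, with 6 to 41 counts per library. It was at 0.270 and 0.756 CPM in WT libraries, 0.444, 0.483 and 0.718 in those of Dnmt3C KO, 0.232, 0.354 and 1.24 in those of Nrf1 cKO, and 0.253, 0.672 and 1.20 in those of dKO, and all 4 genotypes overlapped. A difference between genotypes was not detectable at this depth (Nrf1 effect 0.32, SE 0.487, adjusted p = 0.880 by edgeR).

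Tdrd5 and Tdrd7 share a LOTUS domain beside their Tudor domains. Tdrd5, needed for retrotransposon silencing and for the chromatoid body, was at 11.5 and 12.0 CPM in WT libraries, 11.4, 11.5 and 15.7 in those of Dnmt3C KO, 3.94, 5.77 and 9.56 in those of Nrf1 cKO, and 5.19, 8.18 and 8.77 in those of dKO. Every library with Nrf1 deleted was below every library with Nrf1 intact. The effect was -0.83 (SE 0.21, adjusted p = 0.344 by edgeR, 0.0289 by DESeq2, and 0.0289 to 0.826 over all alternative settings), with nearly the same size in Nrf1 cKO over WT (-0.88, SE 0.348) and dKO over Dnmt3C KO (-0.80, SE 0.232). Tdrd7, which is also expressed outside the germ line, in the lens for one, was at 28.1 and 34.2 CPM in WT libraries, 30.3, 30.3 and 32.4 in those of Dnmt3C KO, 23.0, 28.8 and 33.5 in those of Nrf1 cKO, and 27.9, 28.6 and 30.4 in those of dKO. The genotypes overlapped, and the Nrf1 effect was -0.11 (SE 0.103, adjusted p = 0.779 by edgeR).

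Tdrkh, the Tudor and KH protein that holds piRNA trimming at the mitochondrial surface, was at 14.8 and 18.9 CPM in WT libraries, 20.3, 20.4 and 27.9 in those of Dnmt3C KO, 10.3, 13.8 and 14.6 in those of Nrf1 cKO, and 10.6, 14.8 and 19.8 in those of dKO. Dnmt3C KO was the highest genotype, above all WT, Nrf1 cKO and dKO libraries, and Nrf1 cKO was the lowest on average. The Nrf1 effect was -0.51 (SE 0.167, adjusted p = 0.483 by edgeR), a smaller difference than for the helicases and scaffolds other than Tdrd6.

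**Figure D2:**
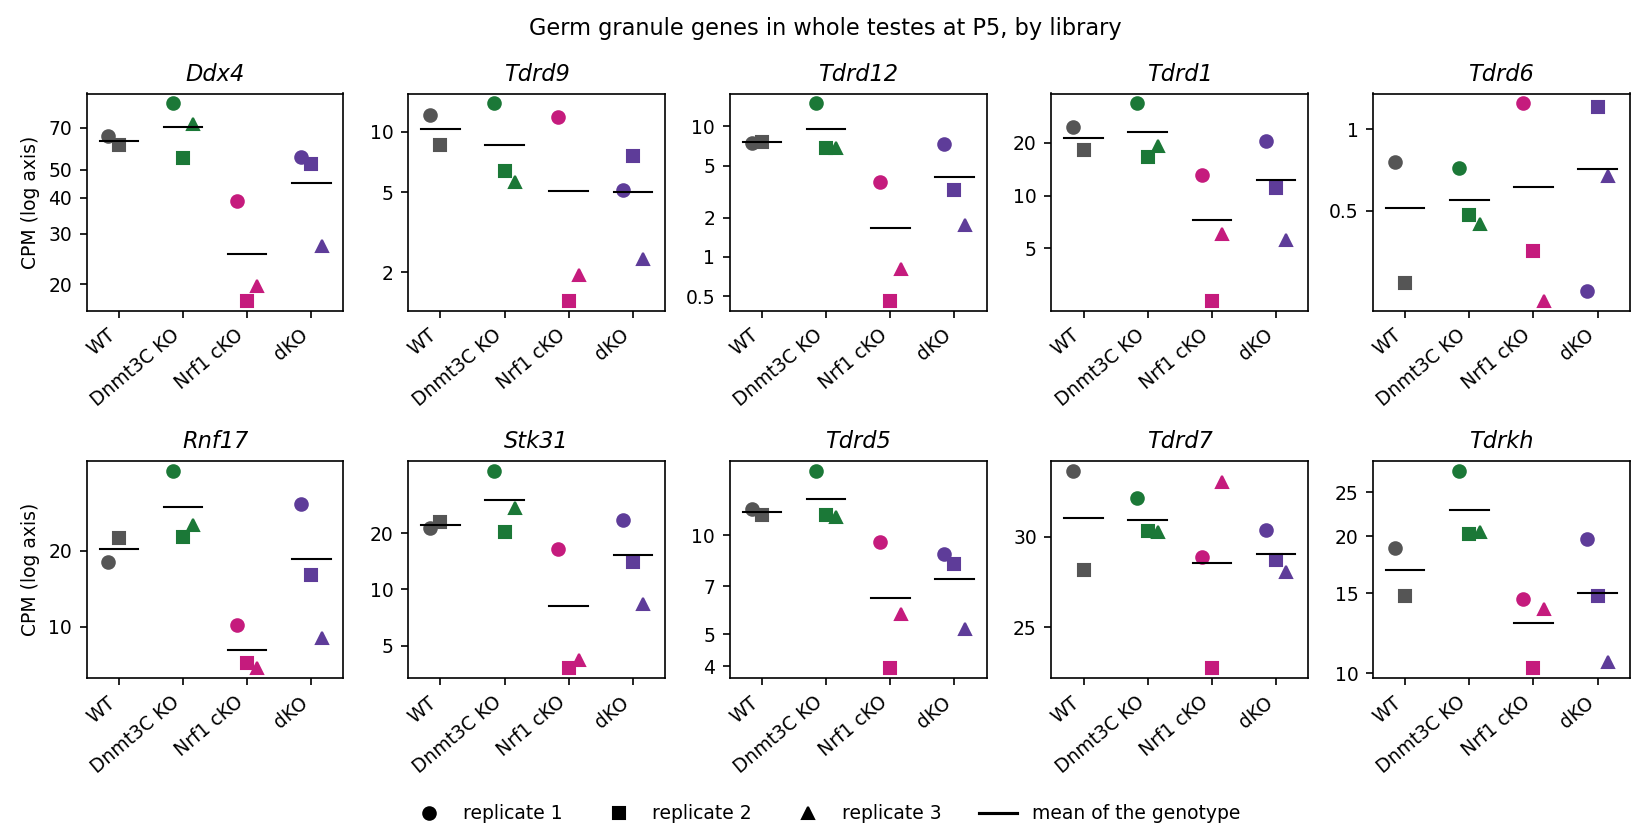
Level of each gene (CPM, log axis, a scale of its own for each panel) in every library of the 4 genotypes, with symbols for replicates and a line at the genotype mean. Ddx4 was between 17.5 and 39.1 CPM in Nrf1 cKO and at 60.8 and 65.7 in WT, and replicate 1 of Nrf1 cKO was the highest of its genotype for every gene but Tdrd7.

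For the Nrf1 effect over both backgrounds, 0 of the 10 genes were called at an adjusted p under 0.01 by edgeR or by DESeq2, where 0.00443% of all features were called by edgeR. At an unadjusted p under 0.05 in the same edgeR fit, 7 of the 10 were lower, beside 4.32% of all features lower. The 7 were Ddx4, Tdrd1, Tdrd5, Tdrd12, Tdrkh, Rnf17 and Stk31, and Tdrd6, Tdrd7 and Tdrd9 made up the rest. The 4 genes with the letters of the NRF1 palindrome printed above had effects of -1.18 (Stk31), -1.20 (Tdrd1), -0.83 (Tdrd5) and -0.11 (Tdrd7). The 4 with a window but no exact match had -0.95 (Ddx4), -1.63 (Tdrd12), -0.88 (Tdrd9) and -0.51 (Tdrkh). Only exact matches were searched, and a link between letters and effects was not tested.

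In the pair of genotypes with DNMT3C intact, 6 of the 10 genes were lower in Nrf1 cKO than in WT at an unadjusted p under 0.05, beside 4.22% of features, and 7 did not overlap between the 2 genotypes, beside 11.6% of features. None was called by edgeR, which called 0.0% of features. Rnf17 had the smallest p, with a log2 fold change of -1.33 (SE 0.244, adjusted p = 0.464 by edgeR), and it was the 1 gene called by DESeq2 (adjusted p = 0.00147, with a range of 0.000347 to 1.00 over all alternative settings). The others were Ddx4 (-1.32, SE 0.304), Tdrd12 (-2.17, SE 0.676), Tdrd1 (-1.58, SE 0.513), Stk31 (-1.45, SE 0.529) and Tdrd5. Without Nrf1 cKO replicate 1 these log2 fold changes were further from 0, at -3.59 for Tdrd12, -2.48 for Stk31, -2.36 for Tdrd1 and -1.77 for Ddx4. The calls depended on the treatment of low counts, on the replicate block and on replicate 1 of Nrf1 cKO. EdgeR called 5 of the 10 (Ddx4, Tdrd1, Tdrd12, Rnf17 and Stk31) without the filter on low counts, with adjusted p between 1.87e-06 and 0.000347, among 138 of 32905 features. With the replicate number as a block it called the same 5, among 87 of 21296 features, and without that replicate it called 3, among 25 of 21014. Of the germ cell markers 21 of 23 were below 0 in this pair, with a median of -1.11 and 15 at an unadjusted p under 0.05, and scaled to them the 10 genes had a median of -0.12, with 6 below 0. Of the Sertoli markers 10 of 11 were above 0 (median 0.49, 3 at that p), of the endothelial markers 5 of 5 (median 0.50, 1 at that p) and of the macrophage markers 6 of 6 (median 0.26, 0 at that p). Below 0 were 1 of 7 Leydig markers (median 0.20, 1 higher at that p) and 1 of 5 peritubular markers (median 0.02, 0 at that p). The part of these cell types was not tested.

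With DNMT3C absent, 5 of the 10 genes were lower in dKO than in Dnmt3C KO at an unadjusted p under 0.05, beside 4.08% of features, and 0 were called by edgeR (0.0% of features) or by DESeq2, which called 21 of 20783 features. They were Ddx4 (-0.65, SE 0.253), Tdrd5, Tdrd12 (-1.21, SE 0.492), Tdrkh (-0.60, SE 0.225) and Stk31 (-0.98, SE 0.362), and their adjusted p was 0.675 each by edgeR. The value of Tdrd12 lay between -1.96 without dKO replicate 1 and -0.73 without Dnmt3C KO replicate 1. Tdrd5 and Tdrkh did not overlap between the genotypes, 2 of 10 genes beside 6.89% of features. The count of 5 genes lower at that p depended on the setting: it was 1 without Dnmt3C KO replicate 1 or without dKO replicate 3, 3 without dKO replicate 2, 3 by DESeq2, 2 with all 11 libraries in one fit, 0 when scaled to germ cell markers, and 8 without the filter on low counts or with the replicate block. Of the germ cell markers 22 of 23 were below 0, with a median of -0.78. Of the Sertoli markers 2 of 11 were below 0 (median 0.29, 3 higher at that p). Below 0 were 6 of 7 Leydig (-0.28, 2 lower at that p), 5 of 5 peritubular (-0.37, 1) and 6 of 6 macrophage markers (-0.35, 1). Medians were -0.11 for endothelial markers and -0.40 for red blood cell genes, with 0 at that p. Their part was not tested.

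The Nrf1 effect was more negative with DNMT3C intact than absent in 8 of the 9 genes with a negative effect over both backgrounds, Tdrkh being the exception. Tdrd6 was at 0.24 (SE 0.786) with DNMT3C intact and 0.36 (SE 0.557) with it absent. The interaction that tests this difference was positive in 9 of 10 genes, between -0.21 and 0.96, with 0 genes called (0.0% of features) and 0 higher at an unadjusted p under 0.05, beside 3.68% of features. Adjusted p was between 0.907 and 0.994 by edgeR. The interaction was also positive in 19 of the 23 germ cell markers, with a median of 0.42 beside 0.35 for the nuage genes, and scaled to these markers the 10 genes had a median of 0.11, with 6 above 0. Medians of the somatic lists were -0.66 for 6 macrophage, -0.62 for 5 endothelial, -0.51 for 7 Leydig and -0.49 for 5 peritubular markers, each marker of these lists being below 0, -0.12 for 11 Sertoli markers and 0.59 for 5 red blood cell genes, with 1 macrophage and 1 Leydig marker at an unadjusted p under 0.05, and their part was not tested. Without Nrf1 cKO replicate 1, 4 of the 10 were higher at an unadjusted p under 0.05, and without dKO replicate 3, 2 were.

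For the absence of DNMT3C most fitted values were above 0, but no gene passed the test. Over both Nrf1 backgrounds 9 of 10 genes were above 0, with a median log2 fold change of 0.39 (-0.01 over all features), and Tdrd9 was at -0.13. None was called, beside 0.00443% of features, and 2 were higher at an unadjusted p under 0.05, Ddx4 (0.52, SE 0.233) and Rnf17, beside 1.90% of features. In the germ cell markers 18 of 23 were above 0, with a median of 0.35. Scaled to these markers, the 10 genes had a median of -0.012, with 5 above 0 and 5 below, and 0 were higher at that p by edgeR. Of the red blood cell genes 5 of 5 were below 0 in this contrast, with a median of -0.92 and 2 of them at an unadjusted p under 0.05, and of the endothelial markers 5 of 5 were below 0, with a median of -0.38 and 1 at that p. The part of these cell types in the nuage values was not tested. The count of 2 nuage genes higher at an unadjusted p under 0.05 moved between 1 and 5 when single libraries were left out, to 5 without Nrf1 cKO replicate 1 and 4 without dKO replicate 3, and was 4 without the filter on low counts and 5 with the replicate number as a block.

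In pairs of genotypes that share libraries with those above, Dnmt3C KO over WT gave Rnf17 (0.55, SE 0.242) and Tdrkh (0.44, SE 0.195), 2 of 10 genes higher at an unadjusted p under 0.05 and without overlap, beside 2.56% and 9.78% of features, with 0 called (0.0%). The count went to 0 without Dnmt3C KO replicate 1. In this pair the macrophage markers had a median of 0.42 (2 of 6 higher at that p) and the Leydig markers 0.245 (2 of 7). Medians were 0.20 for peritubular (0 of 5), -0.003 for Sertoli (1 of 11) and -0.025 for endothelial markers (0 of 5). Their part was not tested. The red blood cell genes were below 0, 5 of 5, in all 3 mutants over WT, with medians of -1.24 in Dnmt3C KO, -1.48 in dKO and -0.82 in Nrf1 cKO. Their sum differed between the WT libraries themselves, at 658.7 and 2123 CPM, and lay between 545.0 and 789.3 in Dnmt3C KO, 260.9 and 788.3 in dKO, and 308.9 and 1773 in Nrf1 cKO. In dKO over Nrf1 cKO, Rnf17 (1.21, SE 0.387) and Ddx4 (0.82, SE 0.339) were higher at that p, beside 1.94% of features, with 0 called (0.0%), no gene higher without overlap (4.14% of features), and 6 genes higher without Nrf1 cKO replicate 1 but 0 without dKO replicate 1. Endothelial markers were below 0 in this pair, 5 of 5 (median -0.64, 1 at that p). Also below 0 were 10 of 11 Sertoli (median -0.15), 6 of 7 Leydig (-0.39) and 6 of 6 macrophage markers (-0.28). So were 5 of 5 peritubular markers (-0.29) and 5 of 5 red blood cell genes (-0.695), with 0 of these 5 lists at that p. Their part was not tested. In dKO over WT, Tdrd5 (-0.67, SE 0.262) and Tdrd9 (-1.04, SE 0.419) were lower, beside 1.19% of features, with 0 called (0.0%). In that pair 4 genes, also Ddx4 and Tdrd12, did not overlap, beside 6.76% of features, and the count of 2 was 0 without WT replicate 1 and 6 without dKO replicate 1. The germ cell markers had medians of 0.26 in Dnmt3C KO over WT, 0.53 in dKO over Nrf1 cKO and -0.47 in dKO over WT, where 22 of 23 were below 0, and scaled to them the counts of 2 were 0 in each of these 3 pairs.

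The single mutants were also compared directly. In Dnmt3C KO over Nrf1 cKO, 7 of 10 genes were higher at an unadjusted p under 0.05 and the same 7 did not overlap, beside 6.27% and 9.45% of features, and 0 were called by edgeR (0.0%). Rnf17 was 3.69 times as high (log2 fold change 1.89, SE 0.256, adjusted p = 0.0528 by edgeR and 1.83e-09 by DESeq2, and up to 0.349 over all alternative settings), Tdrd12 5.67 times (2.504, SE 0.688), Stk31 3.71 times (1.89, SE 0.539), Tdrd1 3.20 times (1.68, SE 0.515), Ddx4 2.78 times (1.47, SE 0.296), Tdrd5 2.00 times (1.00, SE 0.312) and Tdrkh 1.78 times (0.83, SE 0.189). DESeq2 called 3 of them, Ddx4, Rnf17 and Tdrkh, among 212 of 20642 features. Some values moved with Nrf1 cKO replicate 1, without which the log2 fold change was 3.93 for Tdrd12, 2.93 for Stk31 and 2.47 for Tdrd1. The germ cell markers differed in this pair too, with 16 of 23 higher at an unadjusted p under 0.05 and a median of 1.58, and scaled to them the 10 genes had a median of -0.095, with 5 above 0 and 5 below. Of the Sertoli markers 10 of 11 were below 0 (median -0.48, 2 at that p), and of the endothelial markers 5 of 5 (median -0.59, 3 at that p), and their part was not tested.

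**Figure D3:**
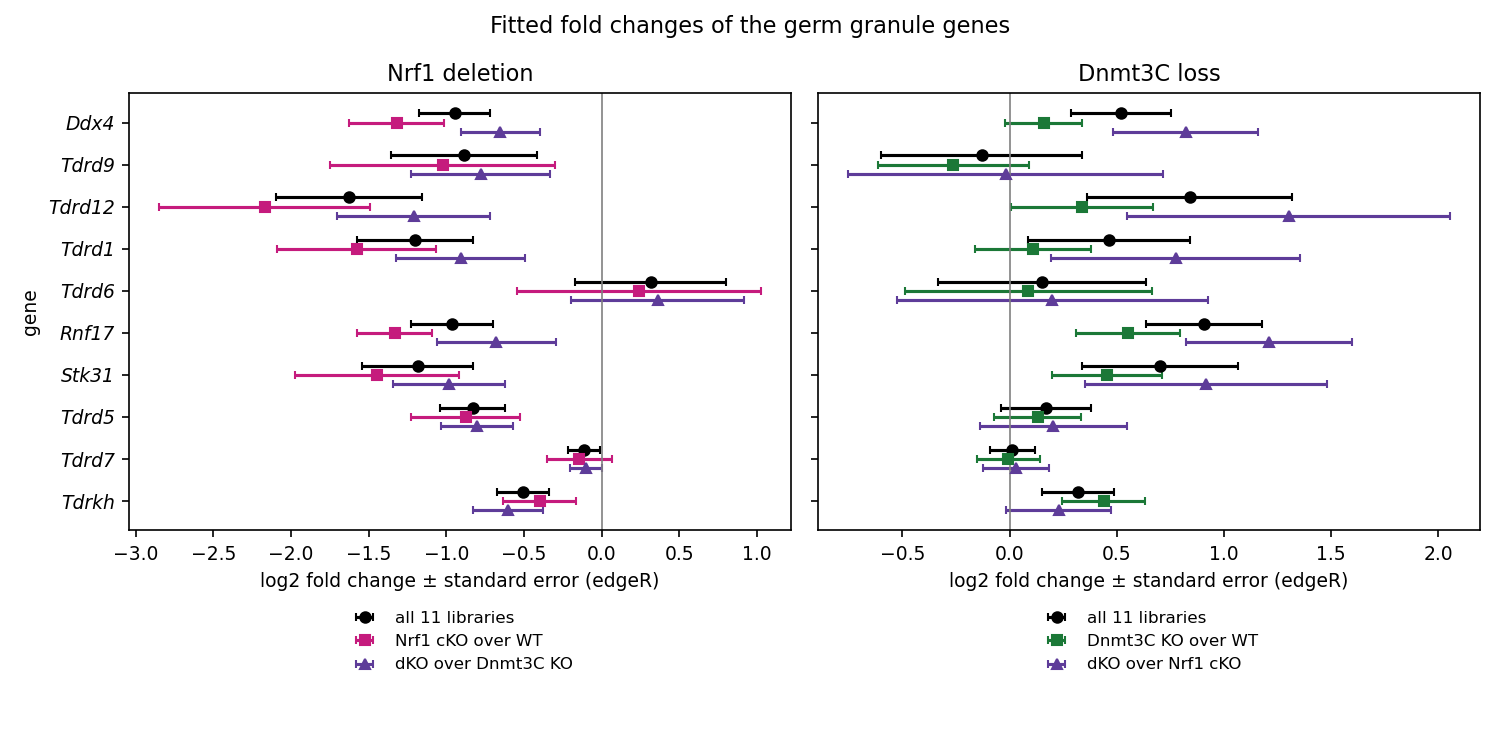
Fitted log2 fold change with its standard error (edgeR) of each gene for Nrf1 deletion (left) and for the absence of DNMT3C (right), over all 11 libraries and in each pair of genotypes. For Nrf1 deletion the values lie below 0 for every gene but Tdrd6, from -2.17 for Tdrd12 in Nrf1 cKO over WT, and for the absence of DNMT3C most lie above 0, with none past the threshold.

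The nuage genes were then compared with a germ cell marker score of each library, the mean log2 CPM of the 23 germ cell markers. These markers did not move alike. They lay between -2.10 and 0.27 for Nrf1 deletion and between -0.37 and 1.33 for the absence of DNMT3C. The score is therefore not a count of germ cells. This score was 2.83 and 3.24 in WT libraries, 2.98, 3.08 and 3.54 in those of Dnmt3C KO, 1.36, 1.61 and 2.42 in those of Nrf1 cKO, and 1.75, 2.71 and 2.80 in those of dKO. Replicate 1 of each mutant, which was highest for most nuage genes, also had the highest score of its genotype. Ddx4 followed the score closely: its SD over the 11 libraries was 0.76 on the log2 CPM scale and 0.14 once the score was subtracted. The SD also shrank for Tdrd5 (0.60 to 0.21), Rnf17 (0.87 to 0.36), Tdrd1 (1.102 to 0.46), Stk31 (1.11 to 0.47), Tdrd9 (1.11 to 0.59), Tdrd12 (1.51 to 0.85) and Tdrkh (0.43 to 0.37). For Tdrd7 the SD was larger after the score was subtracted, 0.64 against 0.16, and for Tdrd6 likewise, 0.93 against 0.81.

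**Figure D4:**
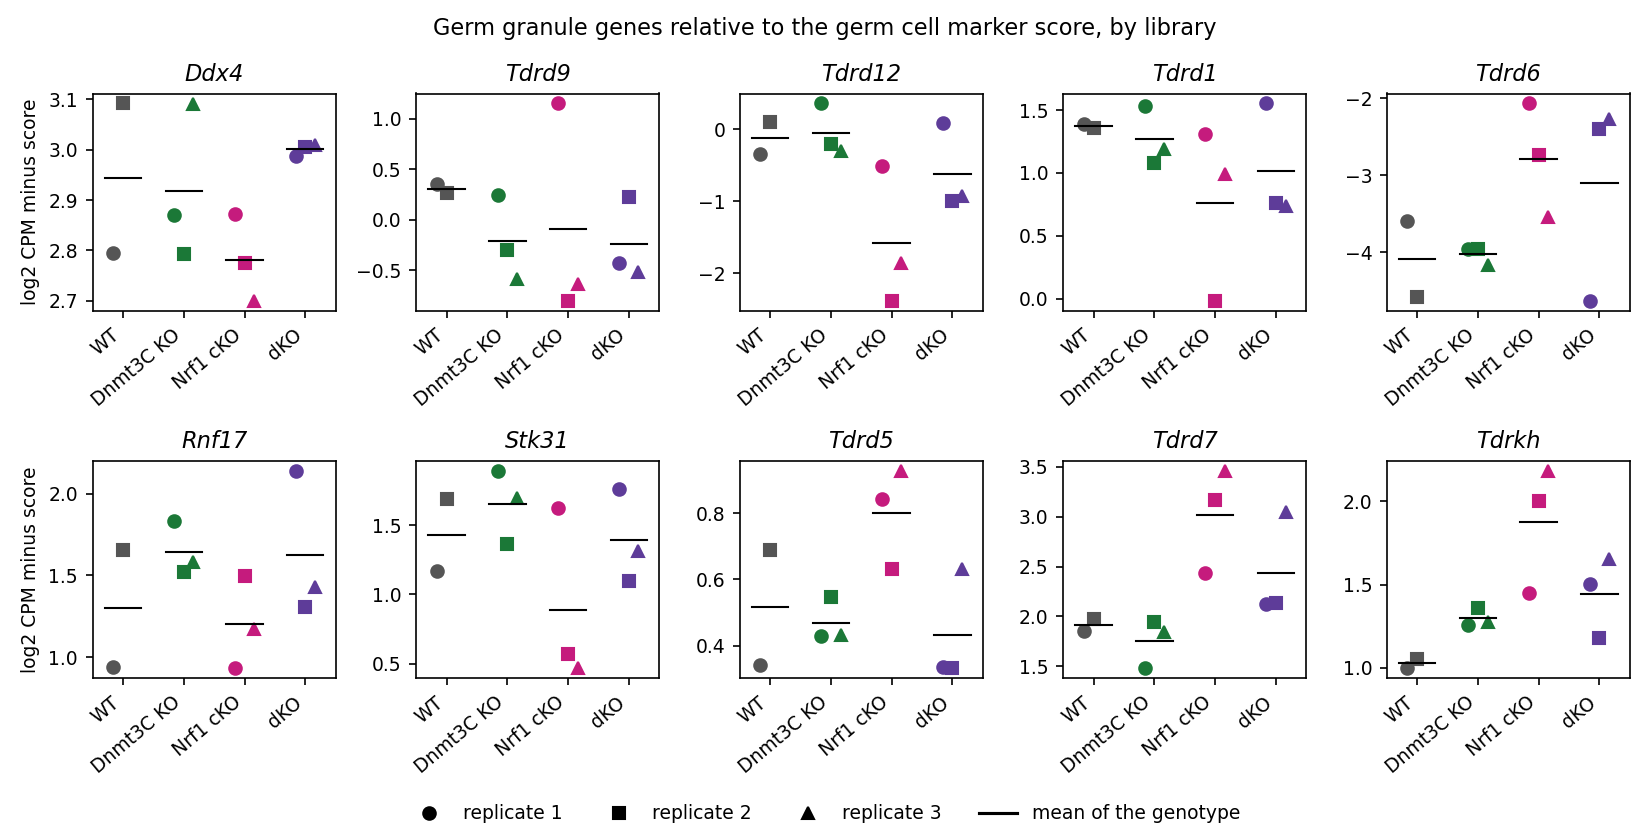
Log2 CPM of each gene minus the germ cell marker score of the same library, by genotype, with symbols for replicates and a line at the genotype mean. Ddx4 stays between 2.7 and 3.09 in all libraries, Tdrd12 reaches -2.38 in Nrf1 cKO, and Tdrd7 and Tdrkh stand highest in Nrf1 cKO.

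Relative to the score, Tdrd12 was at -0.35 and 0.10 in WT libraries, -0.30, -0.20 and 0.36 in those of Dnmt3C KO, -2.38, -1.86 and -0.51 in those of Nrf1 cKO, and -0.996, -0.93 and 0.08 in those of dKO. Nrf1 cKO lay below WT and Dnmt3C KO in every library. Tdrkh went the other way, at 1.00 and 1.06 in WT libraries, 1.26, 1.27 and 1.36 in those of Dnmt3C KO, 1.45, 2.00 and 2.18 in those of Nrf1 cKO, and 1.18, 1.504 and 1.66 in those of dKO, with every mutant library above both WT libraries. The share of all features without overlap on this scale was not computed. Scaling to these markers put the median over genes at 1.05 for Nrf1 deletion, above Tdrkh at 0.47.

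When libraries were scaled in edgeR to equal germ cell markers instead of library size, which moved the median over genes from 0.009 to 1.05 for Nrf1 deletion, the 10 genes had a median Nrf1 effect of -0.04, with 6 below 0 and 4 above. Ddx4 was at -0.03 (SE 0.322), Rnf17 at -0.04 (SE 0.331), Tdrd9 at -0.07 (SE 0.356) and Tdrd5 at 0.10 (SE 0.349). Tdrd12 moved from -1.63 to -0.84 (SE 0.365, unadjusted p = 0.0218, adjusted p = 0.0329 by edgeR), and Tdrd1 and Stk31 were at -0.34 each with an SE of 0.34 and 0.33. Tdrkh (0.47, SE 0.341), Tdrd7 (0.92, SE 0.334, adjusted p = 0.0108) and Tdrd6 (1.28, SE 0.507, adjusted p = 0.0192) were above 0 by edgeR on this scale. No gene was called on it for the Nrf1 effect, although 11444 of the 22594 features were, 11430 of them higher. The values describe nuage RNA per unit of germ cell marker RNA, and the markers are themselves germ cell transcripts that differed between genotypes.

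**Figure D5:**
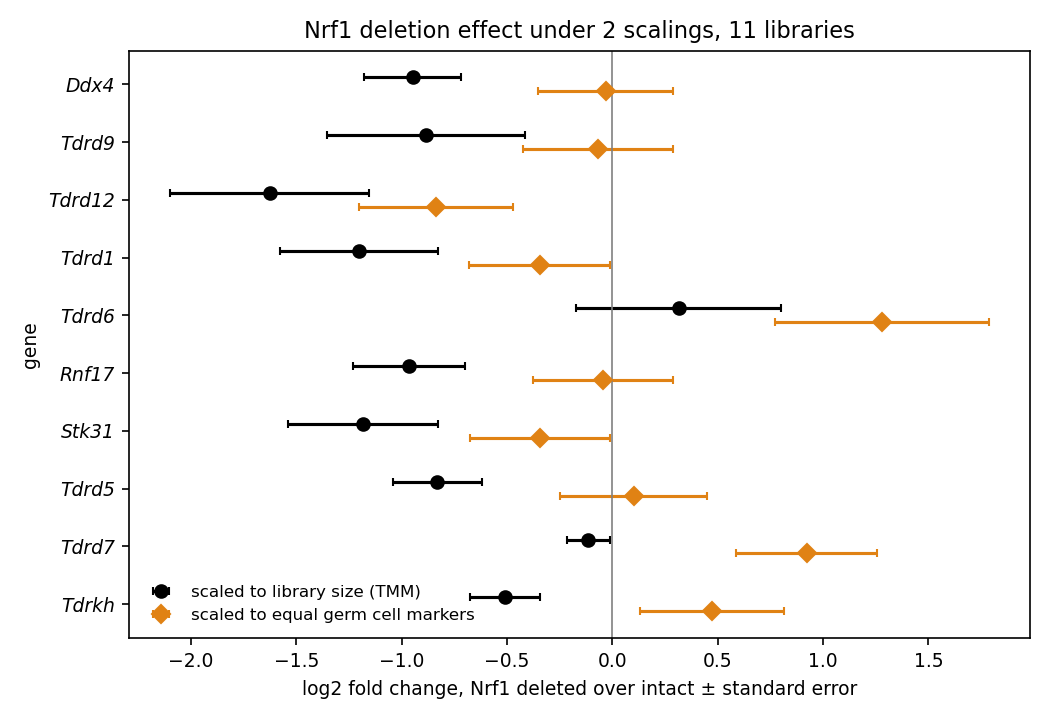
Log2 fold change (Nrf1 deleted over intact, 11 libraries) of each gene with its standard error when libraries are scaled to library size (circles) or to equal germ cell markers (diamonds). Ddx4 moves from -0.95 to -0.03, Tdrd12 from -1.63 to -0.84, and Tdrd7 from -0.11 to 0.92.

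The gene with the pattern most like that of Ddx4 over the 11 libraries, among 16001 genes with a mean of at least 1 CPM, was Smc1b, the meiotic cohesin subunit (Pearson r of log2 CPM 0.989), followed by Scml2 (0.987), Slc25a31 (0.985), Morc1 (0.980), Rhox13 (0.977), Uba1y (0.977), Rbm44 (0.975) and Gm15262 (0.975). Of the nuage genes, Stk31 came 7th (0.976) and Tdrd12 14th (0.972), then Tdrd1 (0.950), Tdrd5 (0.941), Rnf17 (0.927), Tdrd9 (0.861), Tdrkh (0.847) and Tdrd7 (0.492, rank 1559), and Tdrd6 was too low to enter. The germ cell marker score differed between these libraries as well, from 1.36 to 3.54, and its part in these correlations was not tested.

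Of 18 further piRNA pathway genes, 17 were found, and 16 of them were lower with Nrf1 deletion, with a median log2 fold change of -1.01 and 11 at an unadjusted p under 0.05. None was called. The smallest p values belonged to Mael, a nuage HMG-box protein (-1.11, SE 0.23, adjusted p = 0.236 by edgeR), Fkbp6, a co-chaperone of PIWI loading (-0.72, SE 0.185, adjusted p = 0.344 by edgeR), and Gtsf1, a cofactor of PIWI slicing (-1.32, SE 0.359, adjusted p = 0.377 by edgeR). The 1 gene of the list above 0 was Mybl1 (0.05, SE 0.147), the transcription factor of pachytene piRNA loci.

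The other 3 lists of context genes, none confined to germ cells, had medians near 0 in the same contrast. Among 21 broadly expressed Tudor domain genes, 7 were below 0, the median was 0.03, and 2 were lower at an unadjusted p under 0.05 with none called, Mtf2 (-0.30, SE 0.116) and Lbr (-0.24, SE 0.101), with Spin1 next by p (0.22, SE 0.104). Of 12 genes of P-bodies and decapping, cytoplasmic granules found in all cells, 11 were found, with a median of 0.04 and 0 at an unadjusted p under 0.05, the smallest p values being those of Lsm14a (0.17, SE 0.091), Ddx6 (0.16, SE 0.104) and Lsm1 (-0.17, SE 0.117). The 4 genes of the arginine methylation complex that makes the ligands of Tudor domains, Prmt5 (0.02, SE 0.089), Wdr77 (-0.02, SE 0.088), Clns1a (-0.04, SE 0.083) and Riok1 (-0.13, SE 0.089), had a median of -0.03, also with 0 at that p.

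Markers of somatic cells were followed for the same contrast. All 11 Sertoli cell markers were above 0 with Nrf1 deletion (median 0.38, 5 at an unadjusted p under 0.05), summing to between 2280 and 3584 CPM in the libraries with Nrf1 intact and between 2984 and 4508 CPM in those without. Medians were -0.02 for 7 Leydig cell markers, -0.20 for 5 peritubular, 0.15 for 5 endothelial, -0.07 for 6 macrophage and -0.50 for 5 red blood cell genes, with none at an unadjusted p under 0.05. The part of these shifts in the nuage values was not tested.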

How the data were processed

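The authors sequenced poly-A RNA of whole P5 testes, aligned the reads with STAR 2.7.3a to GRCm38, counted them by strand on genes and TE subfamilies with TEtranscripts and, by their methods, left out 1 replicate of every genotype for low RNA quality. They deposited raw counts for each pair of genotypes beside their own DESeq2 comparison, whose fold changes, test statistics, p-values and adjusted p-values were not used, and neither was a TPM table of TE copies. For Nrf1 cKO over WT the paper reports far more differential genes than were called here. More of its protein-coding genes were lower than higher, known germline targets of NRF1 among them. The reason for this gap was not tested. A library had identical counts wherever it appeared, so the tables were joined into 11 libraries and 34276 features with a median of 33862160 counts per library. Counts are of reads, so the depth sets counting error only.

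Counts were tested with edgeR 4.0.16 (filterByExpr, TMM factors, quasi-likelihood F test, Benjamini-Hochberg adjustment over all features, threshold 0.01). Additive terms for Nrf1 and Dnmt3C status used all libraries, the interaction added their product, and pairs of genotypes used only their own libraries. Each standard error (SE) was obtained by dividing the size of the log2 fold change by the square root of F, and the log2 CPM scale has a prior count of 1. DESeq2 1.42.0 was an alternative, beside its size factors, a threshold of 0.05, no low-count filter, the replicate number as a block, library sizes of genes only, all genotypes in one fit, scaling to germ cell markers, and leaving out each library. Exon lengths came from GENCODE M21. The fit was tested on simulated data: of 200 features given a log2 change of 2, edgeR called 85% for the Nrf1 effect (1.16% of 172 calls false, 22009 features), 53.5% for Nrf1 cKO over WT (2.73% of 110 calls false, 21085 features), 64% for dKO over Dnmt3C KO (20576 features) and 46% for the interaction (22081 features). DESeq2 made more false calls in this test, 8.76% of 194 for the Nrf1 effect, 15.07% of 146 for Nrf1 cKO over WT and 14.75% of 183 for dKO over Dnmt3C KO. The changed features were drawn at random, and a shared shift of germ cell genes between libraries was not simulated. The change given was also larger than the Nrf1 effect of any nuage gene over both backgrounds. These shares therefore do not give the recovery or false calls for the nuage genes. Replicates were no copies of each other, with a chi-square per degree of freedom of at least 18.92.

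The rule for named genes was the 10 genes, the 3 genes of smallest p in each context list and the 8 genes most like Ddx4. The genes and lists were chosen with earlier results of these data known, and the genes given one by one for a pair of genotypes are those at an unadjusted p under 0.05 and Ddx4.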

Additional observations from a re-analysis of the deposited data

How the results depend on the processing

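Which nuage genes passed the threshold depended on the method in 2 of the 9 comparisons. For Nrf1 cKO over WT, 0 of 10 were called, but 1 by DESeq2, 5 without the low-count filter, 5 with the replicate block, and between 0 and 3 when a library was left out, with 3 without Nrf1 cKO replicate 1. For Dnmt3C KO over Nrf1 cKO, 0 were called, but 3 by DESeq2, 2 without the filter, 1 when scaled to germ cell markers (Tdrd7, lower in Dnmt3C KO at -1.31), and between 0 and 1 when a library was left out. In the other 7 comparisons no alternative called any. Over all features the counts moved too: Nrf1 cKO over WT called 0, but 25 by DESeq2, 138 without the filter, 87 with the replicate block and 25 without Nrf1 cKO replicate 1; the Nrf1 effect called 1, but 37 by DESeq2; and Dnmt3C KO over Nrf1 cKO called 0, but 212 by DESeq2, 77 without the filter, 16 without Nrf1 cKO replicate 1 and 13241 when scaled to germ cell markers. The cause was not tested. Whether replicate numbers pair the libraries could not be decided: 3 of 15 same-numbered pairs of libraries deviated together at r above 0.1. The deviations were taken from means of 2 or 3 libraries, and those of the 2 WT libraries mirror each other. The numbers are those of the labels, and the deposited tables call replicate 3 of Dnmt3C KO rep4 and replicate 3 of dKO rep5, so for replicate 3 the block joins libraries that the tables number differently. Across 46 fold changes, direction was kept except as follows.

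Scaled to equal germ cell markers, the Nrf1 effect turned to 0.10 for Tdrd5, 0.92 for Tdrd7 and 0.47 for Tdrkh, and the Dnmt3C effect to -0.23 for Tdrd5, -0.10 for Tdrd6, -0.39 for Tdrd7 and -0.13 for Tdrkh. On that scale Ddx4 turned to -0.027 in Dnmt3C KO over WT, 0.05 in dKO over WT and 0.077 in dKO over Dnmt3C KO, Tdrd5 to 0.28 in Nrf1 cKO over WT and -0.33 in Dnmt3C KO over Nrf1 cKO, and Tdrkh to 0.16 in dKO over Dnmt3C KO and -0.61 in Dnmt3C KO over Nrf1 cKO. With the replicate block, the Dnmt3C effect of Tdrd9 turned to 0.22. When single libraries were left out, Tdrd6 lay between -0.061 and 0.60 for the Nrf1 effect and between -0.17 and 0.62 for the Dnmt3C effect, where Tdrd7 lay between -0.054 and 0.077 and Tdrd9 between -0.36 and 0.55.

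Depth limits Tdrd6 (6 to 41 counts per library) and Tdrd12 in Nrf1 cKO (17 counts in its lowest library). With 2 WT libraries, leaving one out leaves a lone library that is assumed to vary like the other genotype.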
